A study of Mus musculus with 6 samples.

Results

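The interleukin-6 (IL-6) family is a group of cytokines that signal through receptors sharing the subunit gp130, encoded by Il6st. The 10 genes described here are the cytokine genes Osm, Lif, Il6 and Il11, the receptor genes Osmr, Lifr, Il6st and Il6ra, the transcription factor gene Stat3 and the inhibitor gene Socs3. These members were chosen by symbol, with their counts and fold changes in the same libraries already known, and all 10 were found among the 18512 entries of the deposited count table. Hence the levels and changes of the members in all comparisons are given as a description. Where a statistical call is given for a member, it is a description too. NMuMG, an established epithelial line from normal mouse mammary gland, received DMSO as vehicle, TGF-β (5 ng/ml), or the same TGF-β dose together with 50 uM 2APB. TGF-β is a cytokine that drives epithelial cells toward a mesenchymal state, and 2APB is a modulator of store-operated calcium entry. No group received 2APB alone, so 2APB was only seen on top of TGF-β. There were 6 RNA-seq libraries, 2 replicates in each group. Treatment of these libraries lasted a day, and according to the methods 2APB was added ahead of TGF-β.

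Each cytokine of the family pairs gp130 with its own receptor chains. IL-6 and IL-11 bind a private α-chain (Il6ra for IL-6) and then gp130, LIF joins gp130 to the LIF receptor, and mouse oncostatin M joins gp130 mainly to the oncostatin M receptor. The engaged receptors activate JAK kinases, which phosphorylate STAT3, and STAT3 then switches on target genes. One of these targets is Socs3, whose product binds gp130 and the JAKs and shuts the signal down. In the mammary gland, LIF and STAT3 are known for their part in the involution that follows weaning.

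Total counts ran from 71840570 to 79473182 per library, and all deposited values were even, so the smallest value above 0 was 2. The 6 epithelial marker genes counted, led by Krt8, summed to between 528300 and 1375000 normalized counts per library. They did not move as one. Mean Krt8 went from 243500 in DMSO to 384400 with TGF-β and 714900 with TGF-β+2APB, and Krt18 rose as well. Mean Cdh1 went from 90890 to 52930 and 38060 in the same order. Krt19 and Epcam were also lower in both treated groups, and Cldn7 was near 0. The mammary markers counted (Csn3, Elf5, Krt5 and Krt14) summed to only 15.8 to 56.0 normalized counts. Csn2, Wap and Lalba were also looked for, but no entry under these names was found in the count table. The 8 hepatocyte markers, among them Alb and Ttr, summed to 122600 and 113600 in the DMSO libraries, 19850 and 14440 in the TGF-β libraries, and 8622 and 11570 in the TGF-β+2APB libraries. Hnf4a was the most abundant of them, with means of 42270 in DMSO, 16590 with TGF-β and 9958 with TGF-β+2APB. It made up most of the sums in the treated libraries. Mean Alb went from 30200 to 67.5 and 29.7 in the same order. Tat and Cyp3a11 were at or near 0 throughout, with 10.3 as the highest value. The mammary markers counted were thus low in libraries labelled NMuMG, a name kept here as the labels give it. Of these, Csn3 reached 33.1 and 51.9 normalized counts in the TGF-β libraries. The part of the hepatocyte markers in the results was not tested. The 4 endothelial markers summed to between 9.83 and 49.3. Haematopoietic markers set 1 library apart. Their sum over 8 genes (among them Ptprc, Cd68, Emr1, Csf1r, Itgam, Cd3e and Lyz2) was 32160 in replicate 2 of TGF-β+2APB, of which Lyz2 gave 28670, and between 454.5 and 4464 in the other libraries. Cd3e was at 0 in every library but that one. Values without this library are also given for Lif, Il11, Il6ra, Socs3, Il11ra1, Socs1, Ptpn6, Hp, Cebpd and Bcl3.

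Normalized counts are TMM-scaled by edgeR to the mean library, and 1 quasi-likelihood model of the 3 groups covered the 13353 genes whose mean reached 20. All 10 members met that minimum. Osm did so only through TGF-β+2APB, with means of 0.983 in DMSO, 7.01 with TGF-β and 102.7 with TGF-β+2APB. Il6 did so only through the treated groups, with means of 0, 31.9 and 51.4 in the same order. Log2 fold changes are fitted values with their standard errors (SE), and a gene was called where the Benjamini-Hochberg FDR of edgeR's quasi-likelihood F-test over all genes was 0.05 or less. In such bulk RNA, fewer cells of a type and less RNA per cell cannot be told apart.

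For each of the 4 cytokine genes both TGF-β libraries lay above both DMSO libraries, and both TGF-β+2APB libraries lay above those. Osm was not called by edgeR at the first of these steps, nor Il6 at the second. Il11, whose product acts on stromal and epithelial cells and is a known TGF-β target, had the widest range among the abundant members. Its normalized count was 74.7 and 76.4 in the DMSO libraries, 18370 and 19660 in the TGF-β libraries, and 37580 and 29740 in the TGF-β+2APB libraries. The groups did not overlap, and the distance between the TGF-β+2APB replicates was wider than in the other groups. With TGF-β the log2 fold change of Il11 was 7.97 (SE 0.17), a 251.2-fold difference. On addition of 2APB it was 0.82 (SE 0.12), or 1.77-fold, and it was 0.62 without replicate 1 and 0.98 without replicate 2 of TGF-β+2APB.

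Lif encodes leukaemia inhibitory factor, which keeps mouse embryonic stem cells undifferentiated and acts in implantation and involution. Its normalized count was 2954 and 2760 in the DMSO libraries, 15070 and 15240 in the TGF-β libraries, and 38920 and 30600 in the TGF-β+2APB libraries. Both steps went upward without overlap between groups, and unlike Il11 the gene was already well covered in DMSO. The log2 fold change of Lif was 2.41 (SE 0.13) with TGF-β and a further 1.20 (SE 0.13) on addition of 2APB, in all 12.2-fold above DMSO. Without replicate 1 or replicate 2 of TGF-β+2APB, the change on addition of 2APB was 0.98 or 1.36.

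Osm encodes oncostatin M, a cytokine made mainly by macrophages, T cells and neutrophils. Its normalized count was 1.97 and 0 in the DMSO libraries, 7.79 and 6.23 in the TGF-β libraries, and 83.2 and 122.3 in the TGF-β+2APB libraries. The gene was close to the limit of detection in DMSO and low with TGF-β, and only the libraries with 2APB stood well above these. From the summed counts, Osm was 102-fold higher with TGF-β+2APB than in DMSO, with an exact 95% counting interval of 27.9 to 848.1. If each read was entered as 2 counts, as the even values allow, the interval is 17.9 to 4068. For TGF-β against DMSO the ratio was 6.98, with an interval of 1.60 to 63.3, or 0.897 to 314.7 on halved counts. The fitted log2 fold change of Osm on addition of 2APB was 3.85 (SE 0.62), a 14.4-fold difference.

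The library with the high haematopoietic markers also had the highest Osm count. Between replicates 1 and 2 of TGF-β+2APB, Lyz2 differed 183-fold, Itgam 84.5-fold and Ptprc 20.8-fold, while Osm differed 1.47-fold. In replicate 1 the 8 markers summed to 504.9 normalized counts, within the range of the DMSO and TGF-β libraries, and Osm stood at 83.2 there against 7.79 at most with TGF-β. Without replicate 2, Osm fell below the minimum mean count and could not be fitted.

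**Figure D1:**
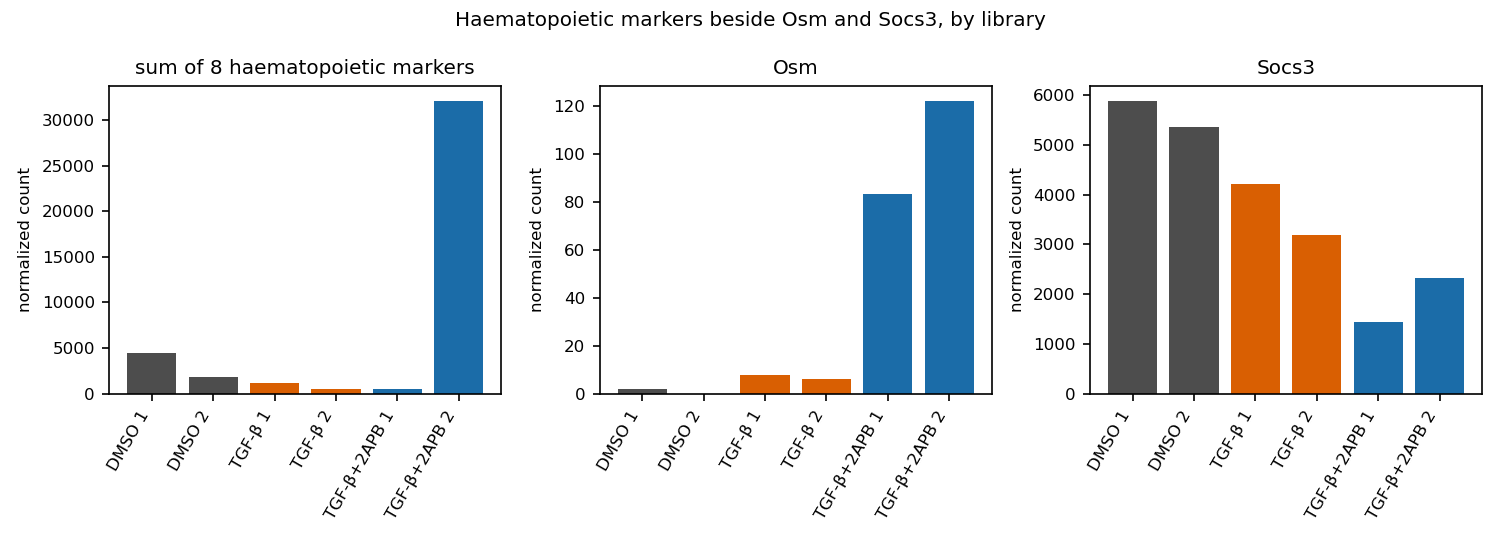
Normalized counts by library of 8 summed haematopoietic markers (left), Osm (middle) and Socs3 (right), with DMSO in grey, TGF-β in orange and TGF-β+2APB in blue. The marker sum was 32160 in replicate 2 of TGF-β+2APB and 504.9 in replicate 1, whereas Osm was 83.2 in replicate 1 and 122.3 in replicate 2.

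Il6, the gene of the founding cytokine of the family, remained at a low level. It was at 0 in both DMSO libraries, at 39.0 and 24.9 normalized counts under TGF-β, and at 51.5 and 51.3 with TGF-β+2APB. Against a floor of 3 counts per library, the level was at least 10.6-fold higher with TGF-β and at least 17.0-fold higher with TGF-β+2APB than in DMSO, or at least 5.28-fold and 8.50-fold on halved counts. These bounds and intervals cover counting error only, since sequenced reads are not independent molecules. Il6 differed between the treatments by 0.68 on the log2 scale (SE 0.39), a value that was 0.40 without replicate 2 and 1.04 without replicate 1 of TGF-β, so its size rested on single libraries.

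Promoter sequences are shown for the cytokine genes with an entry in the RefSeq-based promoter table (GRCm38.p6), because these genes moved together, and for Socs3, because it is the classical STAT3 target among the members. The table gave 11 windows, from 250 bases before to 50 after a transcript start, for 9 of the 10 members, Osm excepted. Each window was searched on both strands for an AP-1 site (TGANTCA), a STAT site (TTCNNNGAA), an NF-κB site (GGG, any 5 bases, CC) and the palindromic SMAD site (GTCTAGAC), letters chosen after the values were seen. An AP-1 match lay in 1 window each of Lif, Il6, Il11 and Osmr, and 7.81% of all 32851 windows of that length held one. The only STAT match was in Socs3, against 8.3% of all windows. NF-κB matches lay in 9 of the 11 windows, against 50.8% of all, and no member held the SMAD letters, which 0.213% of all windows held. The stretches below end where an annotated exon begins and are given on the strand of the gene, with AP-1 and STAT matches in capitals.
Lif, chr11:4257318-4257556, plus strand: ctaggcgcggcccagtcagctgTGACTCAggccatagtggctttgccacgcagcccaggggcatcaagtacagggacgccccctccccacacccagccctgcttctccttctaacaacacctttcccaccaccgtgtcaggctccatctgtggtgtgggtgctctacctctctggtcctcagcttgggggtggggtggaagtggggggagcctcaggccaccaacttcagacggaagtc
Il6, chr5:30012864-30013113, plus strand: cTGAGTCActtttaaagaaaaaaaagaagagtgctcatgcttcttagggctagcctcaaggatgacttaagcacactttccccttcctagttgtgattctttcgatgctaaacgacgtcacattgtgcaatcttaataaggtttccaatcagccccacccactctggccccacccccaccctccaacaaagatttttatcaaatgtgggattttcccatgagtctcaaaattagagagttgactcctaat
Il11, chr7:4778142-4778391, minus strand: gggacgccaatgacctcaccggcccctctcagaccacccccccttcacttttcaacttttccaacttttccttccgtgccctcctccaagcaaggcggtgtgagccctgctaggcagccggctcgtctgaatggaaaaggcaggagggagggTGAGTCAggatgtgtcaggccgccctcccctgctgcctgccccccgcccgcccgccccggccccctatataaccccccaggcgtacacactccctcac
Socs3, chr11:117969452-117969616, minus strand: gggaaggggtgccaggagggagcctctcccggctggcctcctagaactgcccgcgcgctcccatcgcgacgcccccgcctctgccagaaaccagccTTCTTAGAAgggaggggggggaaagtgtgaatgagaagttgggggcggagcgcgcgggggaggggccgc
Relative to the transcript start, the AP-1 letters began at base -228 in Lif, -249 in Il6 and -98 in Il11, and the STAT letters in Socs3 at -154. For Il11 the window belongs to the downstream of its annotated starts. The Socs3 stretch also lies within the annotated gene (117966079 to 117970047), downstream of its furthest annotated start. These matches describe the sequence, and no binding was measured.

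The receptor genes went the other way, with Il6ra as the exception. Il6st encodes gp130, the chain through which the whole family signals, and it was the most abundant receptor gene. Its normalized count was 12680 and 11900 in the DMSO libraries, 9412 and 8629 in the TGF-β libraries, and 6432 and 6712 in the TGF-β+2APB libraries. The groups were separate at both steps. The log2 fold change of Il6st was -0.45 (SE 0.08) with TGF-β and -0.46 (SE 0.08) on addition of 2APB, so the level with both agents was 1.87-fold below DMSO.

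Lifr encodes the LIF receptor, which also serves cardiotrophin and ciliary neurotrophic factor. Normalized counts of Lifr were 2917 and 3231 in the DMSO libraries, 1200 and 1133 in the TGF-β libraries, and 590.0 and 635.3 in the TGF-β+2APB libraries. The replicates of each treated group lay close together and the groups did not overlap. The log2 fold change of Lifr was -1.40 (SE 0.09) with TGF-β and -0.93 (SE 0.09) on addition of 2APB, which left a level 5.02-fold below DMSO.

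Osmr encodes the oncostatin M receptor and had the lowest normalized counts of the receptor genes in every group. Normalized counts of Osmr were 218.2 and 241.7 in the DMSO libraries, 153.9 and 120.4 in the TGF-β libraries, and 43.6 and 35.5 in the TGF-β+2APB libraries. The larger of the steps was that with 2APB. The log2 fold change of Osmr was -0.74 (SE 0.24) with TGF-β and -1.79 (SE 0.26) on addition of 2APB, a level 5.80-fold below DMSO in all. Thus Osm was highest in the libraries in which the gene of its receptor was lowest.

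Il6ra encodes the α-chain that binds IL-6. For Il6ra the normalized counts were 426.5 and 322.3 in the DMSO libraries, 370.1 and 452.4 in the TGF-β libraries, and 799.8 and 657.0 in the TGF-β+2APB libraries. The DMSO and TGF-β libraries overlapped, whereas both TGF-β+2APB libraries lay above all others. The log2 fold change of Il6ra was 0.14 (SE 0.20) with TGF-β, and it changed sign, to -0.05, without replicate 2 of DMSO. On addition of 2APB it was 0.82 (SE 0.20), a 1.77-fold difference, and it was 0.65 without replicate 1 and 0.96 without replicate 2 of TGF-β+2APB. A gene on the opposite strand, Gm42809, overlaps 281 bases of Il6ra, and with an unstated strand setting its reads could not be told apart.

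Stat3 and Socs3 were lower in the same order as the gp130 gene. Stat3 had normalized counts of 18840 and 18140 in the DMSO libraries, 12730 and 10490 in the TGF-β libraries, and 4944 and 5708 in the TGF-β+2APB libraries. Its log2 fold change was -0.67 (SE 0.12) with TGF-β and -1.12 (SE 0.12) on addition of 2APB, and the level with both agents was 3.47-fold below DMSO. The ends of Stat3 and Stat5a overlap by 72 bases on opposite strands, which is a small part of either gene.

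Socs3 had normalized counts of 5889 and 5359 in the DMSO libraries, 4217 and 3196 in the TGF-β libraries, and 1431 and 2328 in the TGF-β+2APB libraries. The groups did not overlap, but the TGF-β+2APB replicates differed 1.63-fold, the widest such difference among the members, and the higher value was in the library with the high haematopoietic markers. The log2 fold change of Socs3 was -0.60 (SE 0.25) with TGF-β and -0.98 (SE 0.25) on addition of 2APB. Without replicate 2 of TGF-β+2APB the latter was -1.38, and without replicate 1 it was -0.70. The part of the marker-bearing cells in the Socs3 count was not tested. The count of a gene says nothing about phosphorylated STAT3 protein, which was not measured here.

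**Figure D2:**
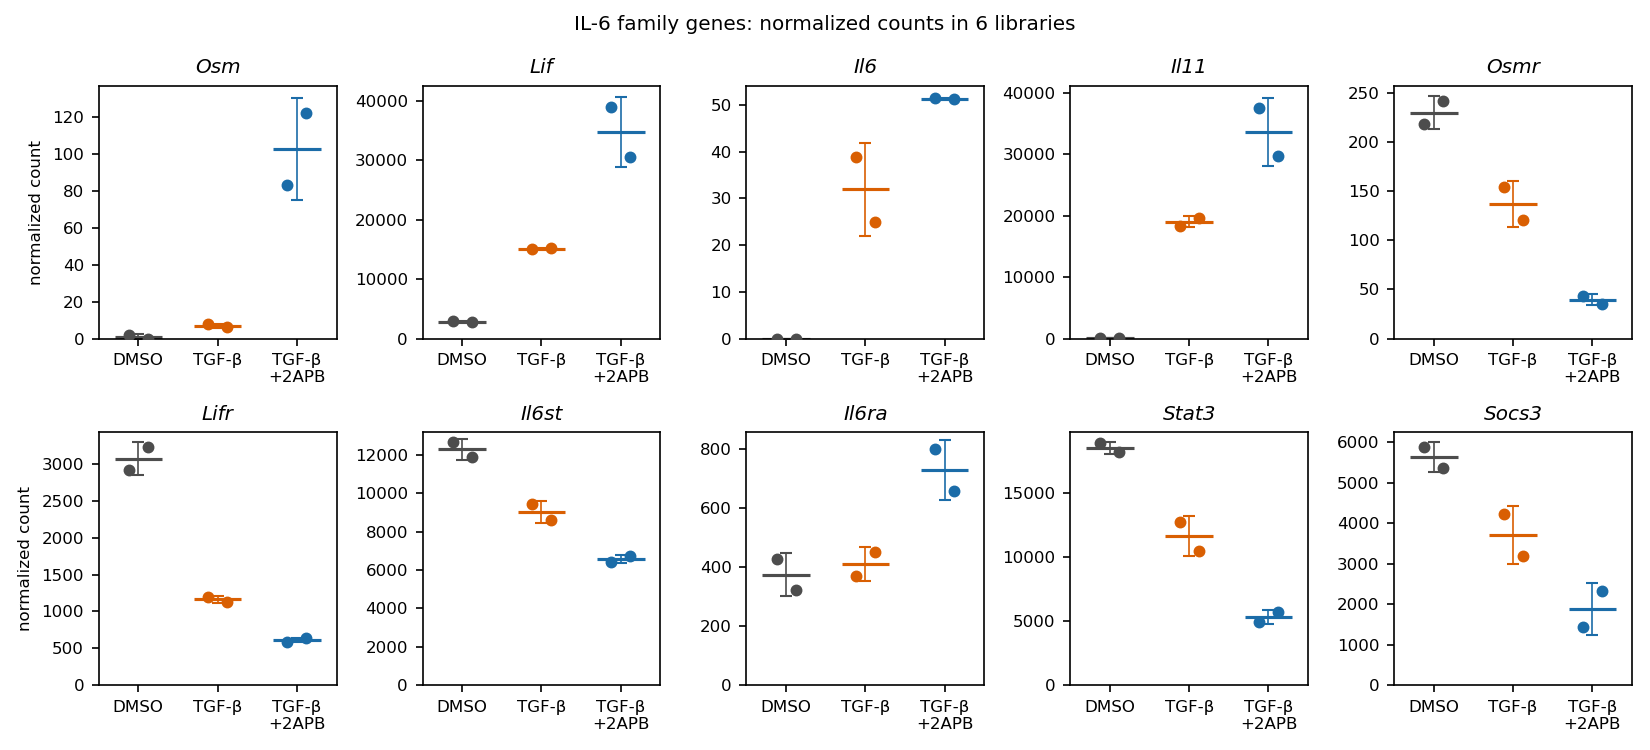
Normalized counts of the 10 members in each of the 6 libraries, on linear axes starting at 0. Points are libraries, horizontal lines are group means and bars are the SD of 2 replicates. Osm, Lif, Il6 and Il11 stepped up from DMSO to TGF-β to TGF-β+2APB, while Osmr, Lifr, Il6st, Stat3 and Socs3 stepped down and Il6ra was higher only with TGF-β+2APB.

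The replicates of TGF-β and DMSO did not overlap in 9 of the 10 members, 4 higher and 5 lower, where 72.5% of all tested genes did not overlap (36% higher and 36.5% lower). All 10 were separate, 5 in each direction, for TGF-β+2APB against DMSO (86% of all genes, 42.3% higher and 43.8% lower) and for TGF-β+2APB against TGF-β (58% of all genes, 27% higher and 31% lower). By edgeR's FDR, 6 members were called with TGF-β against DMSO, 3 higher and 3 lower, against 41.5% of all genes called (21.8% higher and 19.7% lower). Osm, Osmr, Il6ra and Socs3 were the members not called there. With TGF-β+2APB against DMSO all 10 were called, 5 in each direction, against a background of 52.8% (25.6% higher and 27.2% lower). Between the treatments 8 were called, 4 in each direction, against 17.5% of all genes (6.58% higher and 10.9% lower), Il6 and Socs3 being the exceptions. Among these 8, Il6ra was called in only 5 of 12 alternatives. Its call was lost without either DMSO or either TGF-β+2APB replicate and without replicate 1 of TGF-β. It was also lost with no filter on the mean count and with a block for the replicate number. Since the members were picked with these changes known, the counts are not evidence about the family. Osm and Il6 also passed the filter on the mean count only through groups in which they were high. The median log2 fold change of the members was -0.16, 0.03 and 0.11 in these comparisons, against -0.01, 0.00 and 0.00 over all genes, because members going up and down balanced each other.

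**Figure D3:**
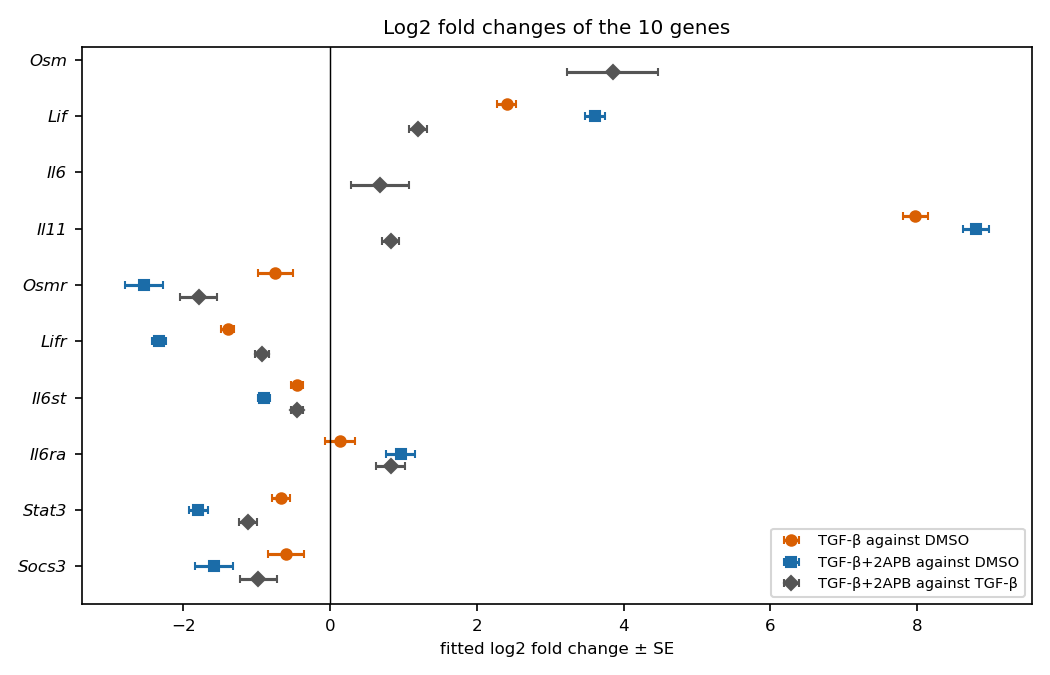
Fitted log2 fold changes of the members (horizontal axis, bars are SE) for TGF-β against DMSO (circles), TGF-β+2APB against DMSO (squares) and TGF-β+2APB against TGF-β (diamonds). Il6 and Osm are left out of the comparisons with DMSO, where they had 0 to 2 counts per library. Il11 reached 8.80 and Osmr -2.54 against DMSO.

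Levels were compared between genes per kilobase of exon and scaled to library depth, the RPKM scale. In DMSO the highest mean level was that of Stat3, at 38.8, followed by Socs3 at 28.8, Il6st at 14.7, Lif at 9.23 and Lifr at 3.87. Il6ra at 0.567 and Osmr at 0.548 overlapped between their replicates, Il11 stood just below them at 0.475, and Osm was at 0.00566. With TGF-β, Il11 at 119.5 and Lif at 49.0 took the top places, above Stat3 at 24.4 and Socs3 at 19.0. With TGF-β+2APB they stood at 211.6 and 112.3, while Stat3, Socs3 and Il6st lay at 11.2, 9.64 and 7.84 with Socs3 overlapping both of its neighbours. Osm, at 0.592, then stood above Osmr, at 0.0942, a reversal of their order in DMSO and with TGF-β.

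The balance within the family shifted accordingly. The ratio of Il11 to Lif per length was 0.0492 and 0.0539 in the DMSO libraries, 2.37 and 2.51 in the TGF-β libraries, and 1.88 and 1.89 in the TGF-β+2APB libraries. Lifr exceeded Osmr 4.12-fold to 9.46-fold in all libraries. Il6st exceeded Il6ra 23.4-fold and 29.1-fold in DMSO, 20-fold and 15-fold with TGF-β, and 6.33-fold and 8.05-fold with TGF-β+2APB. The ratio of Stat3 to Socs3 lay between 1 and 1.42 in the 6 libraries.

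**Figure D4:**
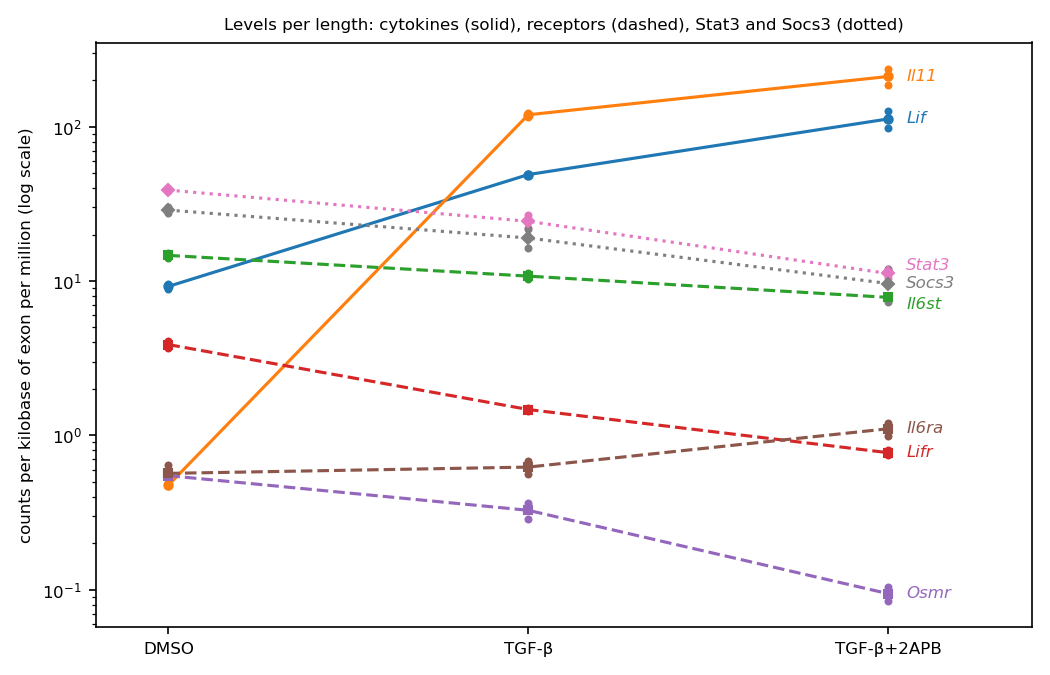
Counts per kilobase of exon on the RPKM scale, on a log axis, for cytokines (solid lines), receptors (dashed) and Stat3 and Socs3 (dotted). Lines join group means and small points are the 2 replicates, and Osm and Il6 are not drawn because they were at 0 in DMSO libraries. Il11 rose from 0.475 to 211.6 and Lif from 9.23 to 112.3, while Osmr dropped from 0.548 to 0.0942.

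Several members lie close to each other in the genome (GRCm38). Osm (chr11:4236420-4241026) and Lif (chr11:4257557-4272514) follow each other on the plus strand of chromosome 11 with 16530 bases between them and no other gene of the count table in that gap. The other tested genes within 100 kb of Osm were Rnf215, Ccdc157, Sf3a1 and Tbc1d10a, with log2 fold changes between -0.07 and 0.49 for TGF-β against DMSO and between 0.09 and 0.48 for TGF-β+2APB against TGF-β. Lif exceeded that range in both comparisons, and Osm did so on addition of 2APB. For TGF-β against DMSO the fitted value of Osm was also higher, at 2.66 (SE 0.89). That value rested on 2 and 0 counts in the DMSO libraries and was not called by edgeR. Osmr (chr15:6813577-6874969) and Lifr (chr15:7090614-7197489) lie 215644 bases apart on chromosome 15, on opposite strands. Il6 is on chromosome 5 (30013114 to 30019981), Il11 on chromosome 7 (4772373 to 4782859), Il6ra on chromosome 3 (89864059 to 89913196) and Il6st on chromosome 13 (112464070 to 112510086). Stat3 (100885098 to 100939540) and Socs3 (117966079 to 117970047) are on chromosome 11 with Osm and Lif. Some neighbours of other members changed as well. Within 100 kb of Il11, Tmem190 and Fam71e2 had log2 fold changes of 2.21 (SE 0.29) and 4.27 (SE 1.26) with TGF-β. The other tested genes there lay between -0.61 and 0.63. Egflam, within 100 kb of Lifr, changed by -3.95 (SE 0.29) with TGF-β and by -2.65 (SE 0.37) on addition of 2APB.

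The genes that followed the profile of a member most closely were sought over the 6 libraries by Pearson's r of log2 normalized counts. For Osm these were Rpl23a (r = 0.996), Cd93 (0.993) and Psmb7 (0.992), where Rpl23a is uncertain because near-identical copies may share its reads. For Il11 they were Gpr123 (0.9999), Lce1f and Spsb1 (both 0.9998), and for Socs3 they were Rnd1 (0.9984), Pcdhb9 (0.9979) and Padi2 (0.9978). Such values are common with 3 groups in 6 libraries, since 359 genes exceeded 0.95 for Osm, 660 for Socs3 and 1438 for Il11.

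The rest of the pathway was covered by 5 lists with 62 genes, of which 58 were in the table and 50 were tested. With TGF-β against DMSO 26 of the 50 were called, 13 higher and 13 lower, which is to be read against the 41.5% of all genes called. TGF-β+2APB against DMSO gave 31, 12 higher and 19 lower (52.8% of all genes). Between the treatments 12 were called, 4 higher and 8 lower (17.5% of all genes), a count that ranged from 6 to 24 when each library was left out in turn and was 12 without replicate 2 of TGF-β+2APB. It was 6 without either DMSO replicate or replicate 1 of TGF-β+2APB, and 24 without replicate 2 of TGF-β. The first count, 26, was 11 and 12 without replicate 1 and replicate 2 of DMSO.

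Among the other ligands, Clcf1, which signals through gp130 and the LIF receptor, had 8070 and 8250 normalized counts in the DMSO libraries, 10370 and 11530 in the TGF-β libraries, and 12610 and 13460 in the TGF-β+2APB libraries. The groups did not overlap. Clcf1 rose by 0.42 on the log2 scale with TGF-β (SE 0.08, edgeR FDR 0.0104, with 0.1 as the highest value over the alternatives and no call without either DMSO replicate). Its change on addition of 2APB was 0.25 (SE 0.08, edgeR FDR 0.0975). Cntf, tested at 15.8 to 35.6 normalized counts, had log2 fold changes of -0.01 and -0.03. Ctf1, Ctf2, Il27 and Ebi3 had too few counts to be tested, and the highest of the Ebi3 values, 25.7, was in replicate 2 of TGF-β+2APB.

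Of the other receptors and the proteases that shed receptors, Il11ra1, the private chain for IL-11, Adam10 and Adam17 were tested. Il11ra1 had 465.8 and 464.9 normalized counts in the DMSO libraries, 370.1 and 267.7 in the TGF-β libraries, and 203.9 and 290.0 in the TGF-β+2APB libraries. It fell against DMSO with TGF-β+2APB (log2 fold change -0.91, SE 0.24, edgeR FDR 0.0225), a call that was lost, with an FDR of up to 0.0991, without either DMSO replicate or without replicate 1 of TGF-β+2APB. Without replicate 2 of TGF-β+2APB the change of Il11ra1 was -1.17 (edgeR FDR 0.0189). Its paralogue Il11ra2 may share its reads. Adam10 and Adam17 fell with TGF-β by 0.50 and 0.30 on the log2 scale (SE 0.11 and 0.07, edgeR FDR 0.0139 and 0.0193), and neither call held without either DMSO replicate (FDR up to 0.092 and 0.169). The call of Adam17 was also lost without either TGF-β+2APB replicate. None of the 3 was called between the treatments by edgeR or by DESeq2, and 0 had an unadjusted p under 0.05 there. Cntfr and Il27ra had too few counts.

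The counts of each list are to be read against the shares of all genes called. These were 41.5% with TGF-β, 52.8% with TGF-β+2APB against DMSO and 17.5% between the treatments. Of 9 JAK and STAT genes tested, 6 were called with TGF-β, 1 higher (Jak1, kept in 7 of 12 alternatives) and 5 lower. The count was 2 without replicate 1 and 3 without replicate 2 of DMSO, all lower. Jak3, a kinase best known from lymphocytes, went from 4633 and 4291 normalized counts in DMSO to 2618 and 2229 in the TGF-β libraries and to 1202 and 1302 in those with 2APB. It fell at both steps, by 0.88 (SE 0.10, edgeR FDR 0.00177) and by 0.95 (SE 0.11, edgeR FDR 0.0061) on the log2 scale, and was the only one of the 9 called between the treatments, where DESeq2 called 4 and where 3 and 4 were called without replicate 1 and replicate 2 of TGF-β. Stat5a, which lies next to Stat3, fell with TGF-β by 1.20 (SE 0.12, edgeR FDR 0.000933), and its change when 2APB was added was -0.01 on that scale (SE 0.12, edgeR FDR 0.96). With TGF-β+2APB against DMSO 7 of the 9 were called, 2 higher and 5 lower, and 4 without replicate 2 of DMSO.

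For the inhibitors the same shares of all genes apply, 41.5% with TGF-β, 52.8% with TGF-β+2APB against DMSO and 17.5% between the treatments. Of 15 other inhibitors of the pathway, 4 were called with TGF-β, all higher, and 11 were not. This count and its direction rested on single libraries, with 1 called without either DMSO replicate, 7 (6 higher and 1 lower) without replicate 1 of TGF-β and 8 (3 higher and 5 lower) without replicate 2 of TGF-β. Cish, a relative of Socs3 that is a target of STAT5, rose against DMSO with TGF-β (log2 fold change 0.44, SE 0.08, edgeR FDR 0.00795, up to 0.0845 and not called without either DMSO replicate). With 2APB added it went higher still (0.64, SE 0.08, edgeR FDR 0.00809, and 0.0624 without replicate 1 of TGF-β+2APB), which is opposite in direction to Socs3. Ptpn11, the gene of the phosphatase SHP2, rose by 0.56 with TGF-β (SE 0.07, edgeR FDR 0.00273). Socs2 was called higher with TGF-β (0.50, SE 0.15, edgeR FDR 0.0446, range up to 0.184, kept in 7 of 12 alternatives and lost without either DMSO replicate, without replicate 2 of TGF-β, under library size scaling and with no filter on the mean count). Between the treatments Socs5 fell by 0.83 (SE 0.12, edgeR FDR 0.0109, and 0.0614 without replicate 1 of TGF-β+2APB) and Pias3 by 0.51 (SE 0.08, edgeR FDR 0.0149, kept in 8 of 12 alternatives and lost without either DMSO or either TGF-β+2APB replicate, up to 0.114). With Cish they made up the 3 inhibitors called between the treatments, a count that was 1 without replicate 1 of TGF-β+2APB, 2 without either DMSO replicate and 9 (5 higher and 4 lower) without replicate 2 of TGF-β. With TGF-β+2APB against DMSO 5 were called, 2 higher and 3 lower, which became 3 without either DMSO replicate, and 10 and 11 without replicate 1 and replicate 2 of TGF-β. In that comparison Ptpn6, the haematopoietic phosphatase SHP1, fell by 1.53 (SE 0.42, edgeR FDR 0.0253, up to 0.0952 and not called without either DMSO replicate), and by 2.34 without replicate 2 of TGF-β+2APB (edgeR FDR 0.00096). Socs1 had its highest value, 631.4, in replicate 2 of TGF-β+2APB against 205.9 in replicate 1, and its log2 fold change between the treatments was 0.99 (edgeR FDR 0.236), or -0.03 without replicate 2 (edgeR FDR 0.953).

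The 20 tested genes that gp130 and STAT3 induce in other settings did not move as one. With TGF-β 12 were called, 6 higher and 6 lower, against 41.5% of all genes. Fewer were called without either DMSO replicate, with most of the loss among the lower ones. With TGF-β+2APB against DMSO 14 were called, 6 higher and 8 lower, against 52.8% of all genes. Pim1, a kinase gene and STAT target, went from 275.2 and 274.8 normalized counts in DMSO to 2213 and 1905 in the TGF-β libraries and to 8600 and 8091 in those with 2APB. Pim1 rose at both steps, by 2.90 (SE 0.10, edgeR FDR 5.01e-05) and by 2.02 on the log2 scale (SE 0.10, edgeR FDR 0.00234), and the call between the treatments held in all 12 alternatives (FDR at most 0.0196). The acute phase genes of the list went down. Saa3 had 2201 and 2159 normalized counts in DMSO and 0 to 9.87 in the treated libraries (edgeR FDR 0.000963 with TGF-β). Lrg1 had 76.7 and 90.9 in DMSO and 0 to 5.92 in the others (edgeR FDR 0.0124 with TGF-β, 0.0605 without replicate 1 of DMSO). Hp, the haptoglobin gene, had 2156 and 1967 in the DMSO libraries, 120.8 and 49.8 in the TGF-β libraries, and 17.8 and 286.1 in the TGF-β+2APB libraries (edgeR FDR 0.0223 with TGF-β, up to 0.0898 and not called without either DMSO replicate or without replicate 2 of TGF-β). With TGF-β+2APB against DMSO the change of Hp on the log2 scale was -3.76 (edgeR FDR 0.0289, up to 0.102 and not called without either DMSO replicate), and -6.82 without replicate 2 of TGF-β+2APB (edgeR FDR 0.000981). These genes fell, as the hepatocyte markers did. The sum of those markers went from 113600 or more in DMSO to 19850 or less in the treated libraries. The part of that loss in the change of Saa3, Lrg1 and Hp was not tested.

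Between the treatments 7 of the 20 were called, 2 higher (Pim1 and Vegfa) and 5 lower, against 17.5% of all genes. Most of the lower calls were lost without either DMSO replicate or without replicate 1 of TGF-β+2APB, although none of the 5 changed sign in any alternative. A DMSO library enters this comparison only through the scaling and the shared estimate of the spread. Hence a call lost without it does not show that the change depended on that library. Cebpd, a transcription factor of the acute phase response, had 1030 and 676.5 normalized counts in the TGF-β libraries against 142.5 and 278.2 in those with 2APB. It fell by 2.02 on the log2 scale (SE 0.36, edgeR FDR 0.0182). That call was lost without either DMSO replicate and with a block for the replicate number (edgeR FDR 0.0516). Without replicate 2 of TGF-β+2APB Cebpd fell by 2.59 (edgeR FDR 0.0137). Bcl3 fell by 0.99 (SE 0.21, edgeR FDR 0.0284), and by 1.31 without that library (edgeR FDR 0.0181). The call of Bcl3 was lost without either DMSO replicate, without replicate 1 of TGF-β+2APB and with the replicate block (edgeR FDR 0.0674). Many genes of this list answer to other pathways as well, so their changes do not report on STAT3 alone.

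**Figure D5:**
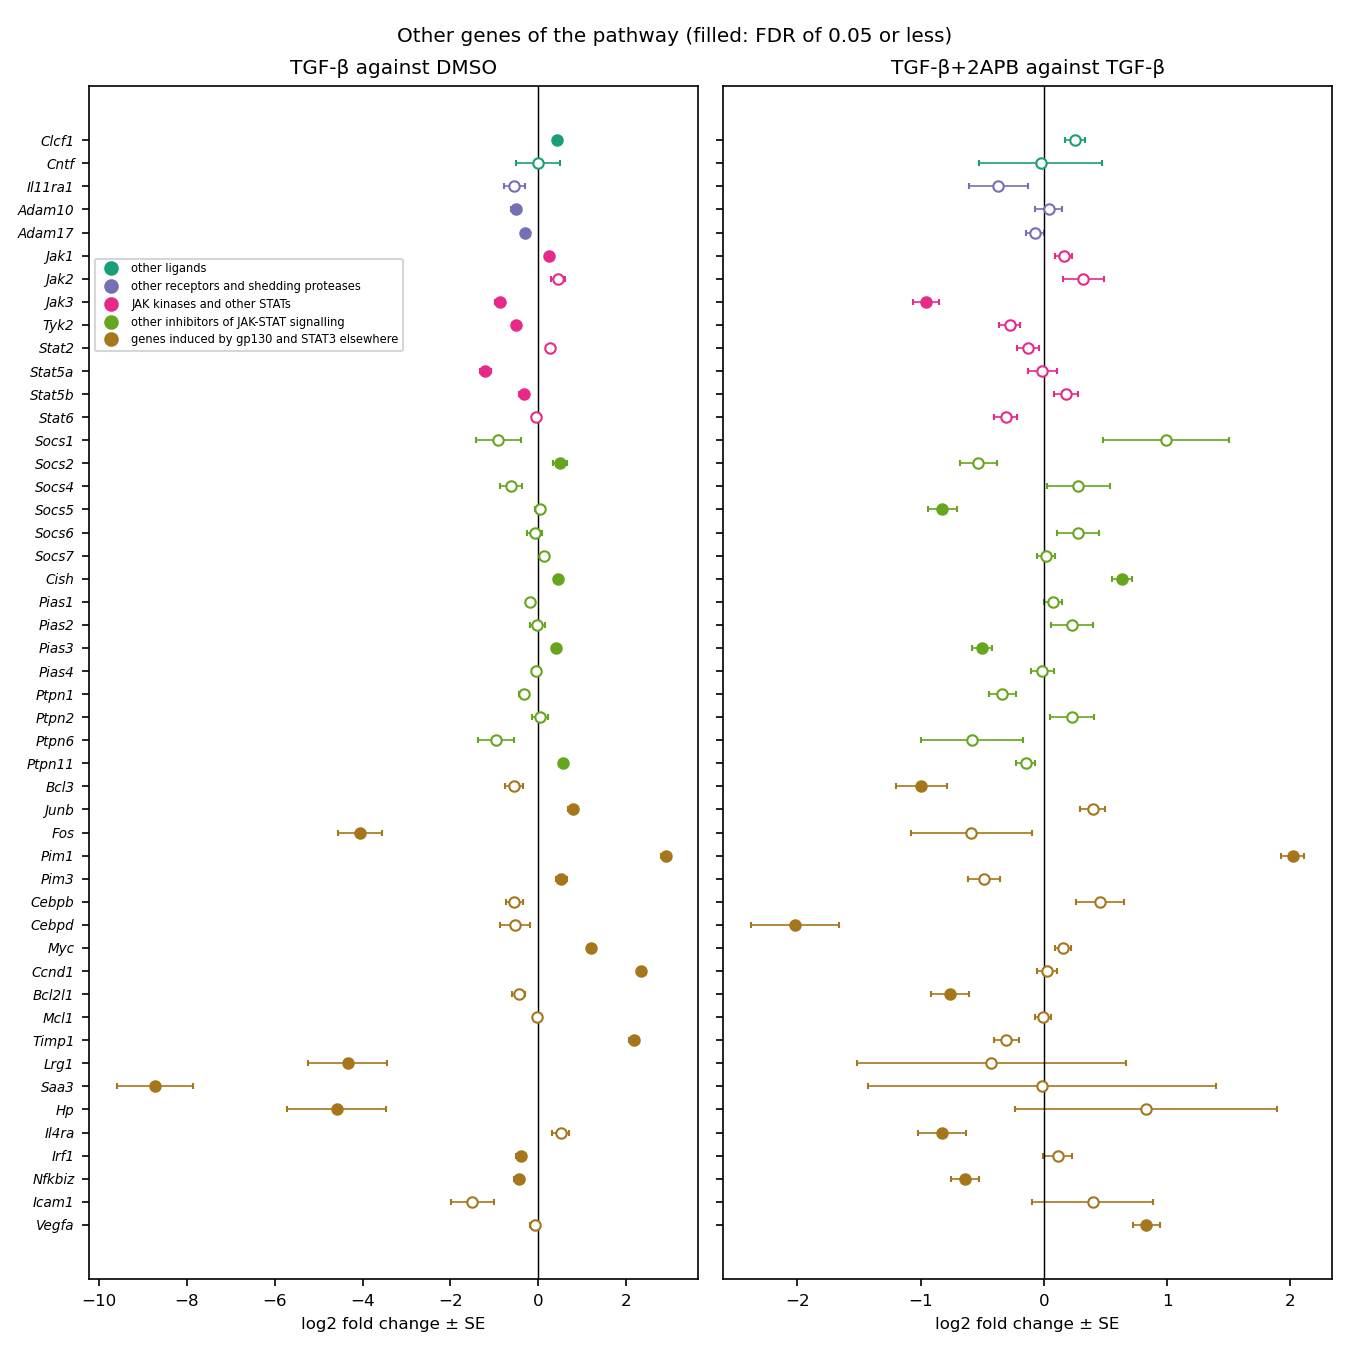
Log2 fold changes (bars are SE) of 48 of the 50 tested genes of the wider pathway for TGF-β against DMSO (left) and TGF-β+2APB against TGF-β (right), coloured by list and filled where the edgeR FDR was 0.05 or less. Filled points number 24 on the left and 11 on the right, and the horizontal scales differ. Pim1 lies to the right of 0 in both panels, and Jak3 to the left.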

How the data were processed

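RNA of 6 libraries, 2 replicates in each of 3 groups taken from the sample titles, was analysed. The authors sequenced single-end reads, aligned them with TopHat2 2.0.13 and summed them by gene with featureCounts. What the authors deposited is unscaled counts. The submitters' processing notes name mm10 and the methods hg19, and the symbols are mouse symbols. The annotation, strand setting and treatment of reads with several alignments are not given in the sources used here. Of the names, 25 had become dates and stayed in the fit unnamed, as did 4 entries that share a name. Positions and exon lengths came from a GRCm38 annotation (94.64% of entries matched).

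Counts were fitted in R 4.3.3 with edgeR 4.0.16 (TMM, quasi-likelihood, mean of at least 20, FDR 0.05), and DESeq2 1.42.0 was an alternative. No covariate was used. The other alternatives were RLE or library size scaling, no filter, a replicate block, halved counts and each library left out. The code was tested on simulated data. The labels do not say whether replicates were separate cultures, while the methods call them biological. If they were technical, p-values measure only technical spread.

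The members and the lists were chosen with earlier results of these data known. Named genes were the members, up to 3 called genes per list and comparison with the largest changes, all other ligands and receptors, leading markers, and the 3 genes most like Osm, Il11 and Socs3. Vegfa, Jak1, Socs1, Gm42809, Krt18, Krt19, Cdh1, Epcam, Cldn7, Tat, Cyp3a11, Tmem190, Fam71e2 and Egflam were named after their values were seen. Some genes of the lists entered the counts and sums but are not reported here by name.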

Additional observations from a re-analysis of the deposited data

How the results depend on the processing

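The replicate numbers were not known to pair the samples. The log2 differences between replicates correlated across genes with r = 0.156 for DMSO and TGF-β, -0.479 for DMSO and TGF-β+2APB, and -0.247 for TGF-β and TGF-β+2APB. With the replicate block, the comparisons of TGF-β with DMSO, TGF-β+2APB with DMSO and TGF-β+2APB with TGF-β gave 4737, 6358 and 1342 genes in place of 5548, 7044 and 2334, then 22, 30 and 9 wider pathway genes in place of 26, 31 and 12, and 6, 10 and 7 members in place of 6, 10 and 8. Between the treatments the block ended the calls of the member Il6ra and, among named genes, of Cebpd (edgeR FDR 0.0516) and Bcl3 (edgeR FDR 0.0674), and 4 genes induced by gp130 and STAT3 (3 higher and 1 lower) were called in place of 7 (2 higher and 5 lower). With the TGF-β+2APB numbers exchanged in the block, chosen after seeing the data, it gave 5706, 7232 and 2465 genes.

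DESeq2 called 3698 genes and 21 wider pathway genes between the treatments. Leaving out single libraries, calls ranged from 2753 to 7641, from 4355 to 9006 and from 834 to 5405 over all genes, from 11 to 34, from 22 to 39 and from 6 to 24 in the wider pathway, and from 4 to 7, from 9 to 10 and from 6 to 9 among the members. A group with 1 library left was assumed to vary like the others. No called member changed sign in any alternative. With 2 replicates per group, and Osm and Il6 at 0 to 2 counts per library in DMSO, counting error limits their folds.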
